A study of Mus musculus with 9 samples.

Results

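Oxidative phosphorylation genes were followed in RNA-seq of the mouse lambdoidal junction, the place where the facial prominences meet to form the upper lip and primary palate. The set was every protein-coding row of the deposited gene table whose name marks it as a subunit of respiratory complex I (Nduf and mt-Nd genes), II (Sdh), III (Uqcr and mt-Cytb), IV (Cox4 to Cox8 and mt-Co) or V (Atp5 and mt-Atp), which gave 98 of 54532 genes. Of these, 85 are encoded in the nucleus, 35 for complex I, 4 for complex II, 8 for complex III, 20 for complex IV and 18 for complex V. The other 13 are encoded in mitochondrial DNA, 7 for complex I, 1 for complex III, 3 for complex IV and 2 for complex V. Ndufa4 and Ndufa4l2 were placed with complex IV, where the Ndufa4 protein is found.

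The libraries came from C57BL/6J embryos of 35–39 somites (E10.5), 45–47 somites (E11.5) or 48–51 somites (E12.5), with 3 libraries a stage and junction tissue of 17–18 embryos pooled in each, all untreated and without any genetic change named in the labels. Whether the pools of a stage came from separate litters is not given, so the p-values measure the spread between these libraries. In pooled tissue, fewer cells of a type and less RNA per cell cannot be told apart.

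The respiratory chain passes electrons from NADH (complex I) and succinate (complex II) through complex III to complex IV, where oxygen is reduced. Complexes I, III and IV pump protons, and complex V, the ATP synthase, uses the gradient to make ATP. Both genomes must supply subunits for all of these except complex II, whose subunits are all nuclear. The mitochondrial genes are read from the circular genome as long precursors, with mt-Nd6 alone on the strand opposite to the other subunit genes. Several nuclear subunits of complexes IV and V exist as paralogs used in different tissues or conditions, such as Cox4i2, a form of subunit IV known from lung and from cells short of oxygen.

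Depth was 16581009 to 20836804 counts a library. Mesenchyme markers were present in all 9 libraries, as the sum of 7 genes was 985 to 2625 CPM (counts relative to library size, with sizes scaled by the trimmed mean of M-values), and epithelium markers (6 genes) summed to 393 to 813 CPM. E10.5 replicate 3 stood apart with the lowest mesenchyme sum (985 CPM against 1654 and 1634 in the other E10.5 libraries), the highest epithelium sum (813 against 456 and 523 CPM) and an endothelium sum of 74.1 CPM against 254 in both others. Each library was also set against the mean of the other libraries of its stage, so these deviations depend on each other within a stage. That of E10.5 replicate 3 fell with the GC content of genes (Spearman rho −0.55 across genes, against 0.44 and 0.47 in the others of its stage). By the same measure, E12.5 replicates 2 and 3 deviated with gene length in opposite directions (rho 0.52 and −0.41 across genes). The nuclear-encoded subunit genes were short, with a median length of 1587 bases against 4119 for all genes tested, and the mitochondrial genes were poor in GC, with a median of 37.1% against 49.7%.

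Stretches of the mitochondrial genes also occur in the nuclear genome, which bears on what their counts can show. On mouse chromosome 1, 7 annotated pseudogenes in a block of 4663 bases (chr1:24611535-24616197, GRCm38) repeat mt-Co1 in part, mt-Co2, mt-Atp6, mt-Co3, mt-Nd3, mt-Nd4l and mt-Nd4 in part. The copy of mt-Co2 (Gm28661) was identical to it over all 681 aligned bases, as were those of mt-Atp6 over 678, mt-Co3 over 783, mt-Nd4l over 294 and mt-Nd4 over 876. The copy of mt-Nd3 differed at 1 of 345 bases, T3C, and the copy of mt-Co1 at 6 of 492, counted from the first base of the mitochondrial gene. The pairs below show 90 bases that hold the differences of both genes, in capitals, because they were the only differing bases in the 7 alignments. They are read 5′ to 3′ on the strand of the gene, from chrM:9459-9548 (plus strand) and chr1:24613030-24613119 (minus strand) for mt-Nd3, and from chrM:6381-6470 (plus strand) and chr1:24616108-24616197 (minus strand) for mt-Co1.
mt-Nd3: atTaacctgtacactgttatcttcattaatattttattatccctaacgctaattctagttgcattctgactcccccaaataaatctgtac
Gm28438: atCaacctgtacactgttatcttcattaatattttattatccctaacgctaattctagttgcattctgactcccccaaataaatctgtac
mt-Co1: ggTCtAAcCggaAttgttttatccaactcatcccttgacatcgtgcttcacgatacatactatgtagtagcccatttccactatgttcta
Gm29216: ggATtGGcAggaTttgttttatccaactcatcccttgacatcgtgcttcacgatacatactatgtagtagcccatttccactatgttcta

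Among the mitochondrially encoded genes, levels fell into 3 tiers. Levels between genes are given as CPM per kilobase of the deposited gene length, averaged over the 9 libraries. mt-Co1, the catalytic subunit of complex IV, was highest at 4272 CPM per kilobase, followed by mt-Nd1 at 2933, mt-Cytb, the cytochrome b of complex III, at 2756, mt-Nd2 at 1371, mt-Nd6 at 1071, mt-Nd4 at 928 and mt-Nd5 at 927. The next tier held mt-Co2 at 91.3, mt-Nd3 at 66.2, mt-Atp6 at 53.6, mt-Co3 at 42.8 and mt-Nd4l at 19.9 CPM per kilobase. These are the 5 genes of whose 100-base windows at least 97.6% recur in an annotated transcript elsewhere, and together they took 0.692 to 1.31% of the counts of the 13 genes. mt-Atp8, the smallest of the set, had 2.27 CPM per kilobase and was not tested. The share of windows that recur was 60.8% for mt-Nd4, 30.8% for mt-Co1, 3.19% for mt-Nd2 and 0 for mt-Nd1, mt-Nd5, mt-Nd6, mt-Cytb and mt-Atp8. The search covered annotated transcripts only, so a 0 does not exclude a copy in nuclear sequence without annotation. mt-Atp8 overlaps mt-Atp6, whose copy lies in the block on chromosome 1, and its own sequence was not compared with that block. How reads with several positions were counted is not given in the sources used here, so the levels of the copied genes are uncertain. The pseudogene copies themselves held 325 CPM in E12.5 replicate 1 and 102 to 141 CPM in the other 8 libraries.

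**Figure D1:**
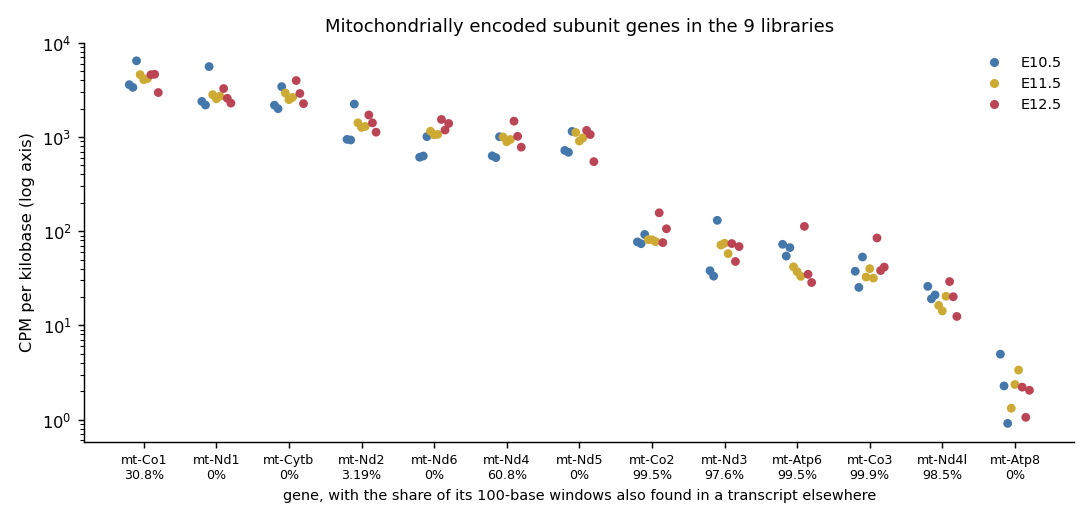
Level of each mitochondrially encoded subunit gene (CPM per kilobase, log axis) in the 9 libraries, 1 point a library coloured by stage. Below each name is the share of the gene's 100-base windows found in an annotated transcript elsewhere. The 5 genes with at least 97.6% of windows recurring lie below the 7 genes from mt-Co1 to mt-Nd5 in every library.

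The nuclear-encoded genes are given by the highest and lowest of each complex. In complex V, Atp5a1, the catalytic-core alpha subunit, was highest of all nuclear members at 345 CPM per kilobase, and Atp5s, a small factor linked to the synthase, was the lowest complex V gene with counts at 4.53. In complex IV, Cox8a was highest at 206. In complex III, Uqcrh, the hinge subunit, had 111 and Uqcrq 38.1 CPM per kilobase. In complex II, Sdhd and Sdhc, the pair that anchors the enzyme in the membrane, had 90.4 and 39.8, with the iron-sulphur subunit Sdhb at 61.4 and the flavoprotein Sdha at 55.3. In complex I, the accessory subunits Ndufa2 and Ndufb2 marked the ends at 104 and 1.75 CPM per kilobase. Ndufb2's deposited length of 5628 bases is far above the median of the set, which lowers its level on this scale.

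In several sets of paralogs, the form known from most tissues carried nearly all counts. Cox6a1 held at least 99.9% of both Cox6a genes per kilobase in every library, and Cox8a at least 99.9% of the 3 Cox8 genes. The muscle forms Cox6a2 and Cox8b had at most 0.0563 and 0.0580 CPM, below the level of 3 counts (0.144 to 0.181 CPM), and the testis form Cox8c had no count. Cox7b2 reached 0.211 CPM in E11.5 replicate 3 and was at 0 in all E10.5 and E12.5 libraries. Cox7a1, the heart and muscle form, had 0.211 to 0.619 CPM against 74.04 to 162 CPM for Cox7a2. These 5 low genes and a second Atp5o row without any count were too low to be tested, which left 79 nuclear-encoded and 12 mitochondrially encoded genes in every comparison. The muscle markers Myod1, Myog, Myf5, Actc1, Tnnt1, Tnnt2, Myl4 and Ttn summed to 3.07 to 6.08 CPM. Cox6b2, a form known from testis, was present in all libraries at 8.19 ± 0.465, 9.49 ± 0.304 and 12.01 ± 2.87 CPM (SD, n = 3) in the 3 stages in turn, while the sperm markers Prm1, Prm2, Tnp1 and Cox8c summed to at most 0.215 CPM. Ndufa4l2, a paralog of Ndufa4 known from low oxygen, held 0.401 to 1.51% of both genes.

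E11.5 vs. E10.5 asked which subunit genes changed as fusion began. Most nuclear-encoded genes were a little lower at E11.5 (59 of 79 fitted below 0, median log2 fold change −0.17 against −0.03 for all genes tested), but few passed the test. By the quasi-likelihood test of edgeR, with p-values adjusted after Benjamini-Hochberg over 15708 genes and a limit of 0.05, 1 nuclear-encoded gene was upregulated and 4 were downregulated, or 1.27% and 5.06% of the 79, beside 6.19% and 5.58% of all genes. Of the 12 mitochondrially encoded genes, none was upregulated by edgeR (1 at an unadjusted p under 0.05, none by DESeq2) and 1 was downregulated. Every E11.5 library lay above every E10.5 library for 4 nuclear-encoded genes and below for 20, 5.06% and 25.3% of the 79, where all genes gave 18.4% and 18.3%. No member passed the thresholds of the study, which also ask that a level rises or falls by 1 or more on the log2 scale, where 3.46% of all genes passed upward and 2.61% downward.

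The gene that rose was Cox4i2. Its levels were 3.03, 2.84 and 3.16 CPM in the E10.5 libraries, 5.86, 5.96 and 5.47 in those of E11.5 and 8.89, 6.68 and 12.1 in those of E12.5. The E11.5 libraries lay close together and all above the E10.5 libraries (log2 fold change 0.94 ± 0.18 (SE), adjusted p = 0.0168, edgeR). The call was lost without E10.5 replicate 2 or E11.5 replicates 1, 2 or 3 (adjusted p from 0.0640 to 0.0830) and with the replicate number as a block (adjusted p = 0.0544, edgeR).

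The genes that fell belong to 3 complexes. Ndufc2, an accessory subunit in the membrane arm of complex I, had 59.9, 64.5 and 69.6 CPM in the E10.5 libraries, 39.8, 41.99 and 37.1 in those of E11.5 and 52.3, 41.4 and 79.4 in those of E12.5. All E11.5 libraries were below all E10.5 libraries (log2 fold change −0.70 ± 0.11 (SE), adjusted p = 0.00690, edgeR), and the E12.5 libraries spread from within the E11.5 range to above the E10.5 range. Its call was lost without E11.5 replicates 1 or 3 (adjusted p from 0.0523 to 0.0605). Uqcr10, a small subunit of complex III, had 73.2, 71.4 and 66.3 CPM in the E10.5 libraries, 39.2, 49.3 and 49.1 in those of E11.5 and 69.9, 47.98 and 89.2 in those of E12.5, with all E11.5 libraries below all E10.5 libraries (log2 fold change −0.61 ± 0.12 (SE), adjusted p = 0.0176, edgeR). That call was lost without E10.5 replicates 1 or 2 or E11.5 replicates 1, 2 or 3 (adjusted p from 0.0527 to 0.0791) and in the fit of all 9 libraries (adjusted p = 0.0644, edgeR). Ndufa5, an accessory subunit in the matrix arm of complex I, went from 42.1 ± 3.69 to 30.3 ± 2.85 CPM (SD, n = 3; log2 fold change −0.47 ± 0.12 (SE), adjusted p = 0.0477, edgeR), a call lost without E10.5 replicates 1 or 2 or E11.5 replicates 1, 2 or 3 (adjusted p from 0.0691 to 0.190). The Ndufa5 call was also lost in 6 of 13 other settings that left no library out, namely upper-quartile scaling, no filter, a filter of 10 counts in every library, the fit of 9 libraries, the replicate block and the length trend removed (adjusted p from 0.0501 to 0.157, edgeR). Atp5g2, 1 of 3 genes for the same c-ring subunit of complex V, went from 188 ± 1.63 to 148 ± 6.50 CPM (log2 fold change −0.34 ± 0.09 (SE), adjusted p = 0.0469, edgeR), a call lost without E10.5 replicates 1 or 2 or E11.5 replicates 1, 2 or 3 (adjusted p from 0.118 to 0.187). The Atp5g2 call was lost in 7 of 13 other settings that left no library out, namely upper-quartile scaling, no filter, the fit of 9 libraries, the replicate block with and without the GC trend removed, the GC trend removed and both trends removed (adjusted p from 0.0531 to 0.218, edgeR), and without E10.5 replicate 3 and the GC trend (log2 fold change −0.05, adjusted p = 0.593, edgeR). An annotated microRNA gene, Mir688, lies in 4.48% of the exon bases of Atp5g2 on the same strand.

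mt-Atp6, the a subunit of complex V, was the mitochondrial gene called. Its levels were 49.4, 37.04 and 45.6 CPM in the E10.5 libraries, 28.5, 25.3 and 22.6 in those of E11.5 and 76.6, 23.7 and 19.4 in those of E12.5, all lower at E11.5 than at E10.5 (log2 fold change −0.79 ± 0.15 (SE), adjusted p = 0.0146, edgeR), with the highest value of all in E12.5 replicate 1. The call was lost without E11.5 replicates 1, 2 or 3 (adjusted p from 0.0551 to 0.0892) and in the fit of all 9 libraries (adjusted p = 0.234, edgeR). Its nuclear copy Gm10925 had 615, 589 and 806 counts at E10.5, 470, 489 and 458 at E11.5 and 1440, 428 and 304 at E12.5, so gene and copy were both highest in E12.5 replicate 1, and reads of the aligned bases cannot be told apart by sequence.

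The counts of called members changed most when E10.5 replicate 3 was left out. Without it, 12 nuclear-encoded genes were upregulated and 22 downregulated (15.2% and 27.8% of 79, beside 19.6% and 20.01% of all genes), and of 13 mitochondrially encoded genes 8 were upregulated and 1 downregulated. Those 8 were mt-Nd3 (log2 fold change 0.93), mt-Nd6 (0.82), mt-Nd4 (0.62), mt-Nd5 (0.51), mt-Nd2 (0.50), mt-Cytb (0.37), mt-Co1 (0.30) and mt-Nd1 (0.24), and the largest of their adjusted p-values was 0.0195 in edgeR. The gene that fell was mt-Atp6 (−0.76). The sign of the fitted change turned for mt-Nd2, mt-Co1 and mt-Nd1, which with all libraries stood at −0.05, −0.06 and −0.33. mt-Nd1, for example, had 2287, 2092 and 5360.4 CPM in the E10.5 libraries, 2695, 2439 and 2598 in those of E11.5 and 3131, 2468 and 2194 in those of E12.5, and E10.5 replicate 3 was higher than any other library. With the trend against GC content also removed, 7 nuclear-encoded genes were upregulated and 21 downregulated (8.86% and 26.6%, beside 16.4% and 20.3% of all genes), and 5 and 2 of the mitochondrially encoded genes. The part of tissue makeup in this library was not tested.

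**Figure D2:**
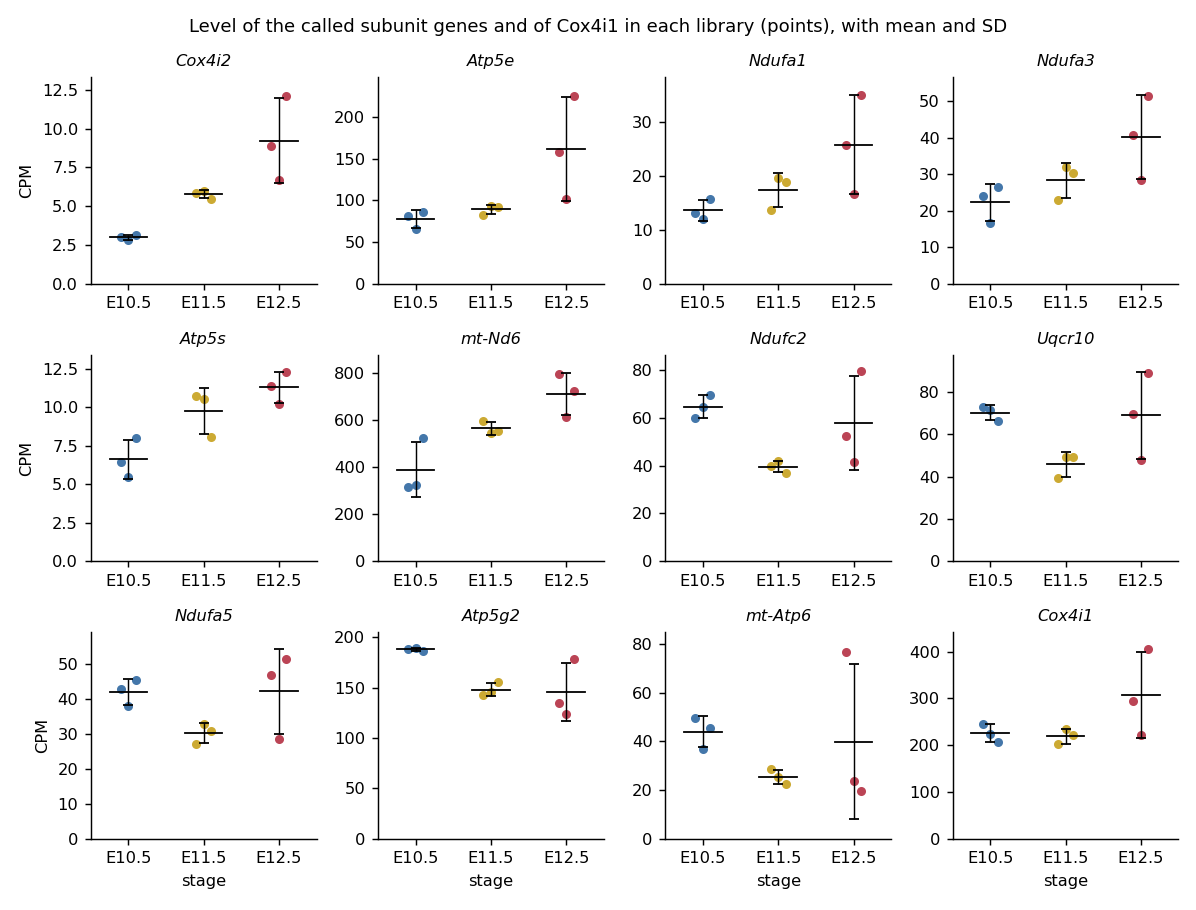
Level (CPM, axis from 0) of the 11 subunit genes that passed the test in any comparison, and of Cox4i1, in each library by stage, with points for libraries, bars for means and whiskers for SD (n = 3). Cox4i2 increases from stage to stage without overlap, Ndufc2 and Uqcr10 have their lowest means at E11.5, and for Atp5e, Ndufa1, Ndufa3, Ndufc2, Uqcr10 and mt-Atp6 the E12.5 libraries spread most.

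E12.5 vs. E11.5 asked the same of the later interval. Here 71 of 79 nuclear-encoded genes were fitted above 0, with a median log2 fold change of 0.37 against 0.02 for all genes tested, and the medians by complex were 0.42 for I, 0.10 for II, 0.43 for III, 0.36 for IV and 0.29 for V. Yet 1 gene passed the test in edgeR, which is 1.27% beside 7.61% of all genes. That order turned without a filter on low counts, where 30 of 82 were upregulated, or 36.6% beside 6.18% of all genes. With the filter, none was downregulated (0 at an unadjusted p under 0.05, 0 by DESeq2), where all genes gave 4.57%. No mitochondrially encoded gene passed (3 at an unadjusted p under 0.05, all higher, and 0 by DESeq2), and their median was 0.19. Every E12.5 library lay above every E11.5 library for 6 nuclear-encoded genes and below for 1, 7.59% and 1.27% of the 79, beside 18.4% and 16.9% of all genes. No member passed the thresholds of the study, where 4.14% of all genes passed upward and 0.962% downward.

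The gene called was Atp5e, the epsilon subunit of the stalk of complex V. Its levels were 81.5, 65.5 and 86.2 CPM in the E10.5 libraries, 82.8, 92.8 and 91.99 in those of E11.5 and 159, 101 and 226 in those of E12.5. All E12.5 libraries were above all E11.5 libraries, and E12.5 replicate 3 was highest (log2 fold change 0.86 ± 0.23 (SE), adjusted p = 0.0357, edgeR). The call was lost without E11.5 replicates 1, 2 or 3 or E12.5 replicates 1 or 3 (adjusted p from 0.0658 to 0.129).

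The nuclear-encoded genes differed most among the E12.5 libraries. Their median deviation from each gene's mean over the 9 libraries, on the log2 scale, was 0.01, −0.05 and 0.03 in the E10.5 libraries, −0.26, −0.04 and −0.10 in those of E11.5 and 0.22, −0.24 and 0.56 in those of E12.5. E12.5 replicate 3 was thus above and replicate 2 below all other libraries but E11.5 replicate 1, the same pair that differed in their trend with gene length. Without E12.5 replicate 2, 55 of 79 nuclear-encoded genes were upregulated (69.6%, beside 15.2% of all genes), 25 of complex I, 1 of complex II, 5 of complex III, 12 of complex IV and 12 of complex V, along with 3 mitochondrially encoded genes. With the length trend also removed, 15 nuclear-encoded genes were upregulated and 1 downregulated (19.0% and 1.27%, beside 10.3% and 12.97% of all genes) and the median was 0.24. Without E12.5 replicate 3, none was called in either direction (beside 7.18% higher and 3.78% lower of all genes) and the median was 0.13. With the length trend removed and all libraries kept, 1 gene was upregulated and 1 downregulated (1.27% each, beside 8.68% and 8.93% of all genes), with a median of 0.13 against −0.04 for all genes.

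**Figure D3:**
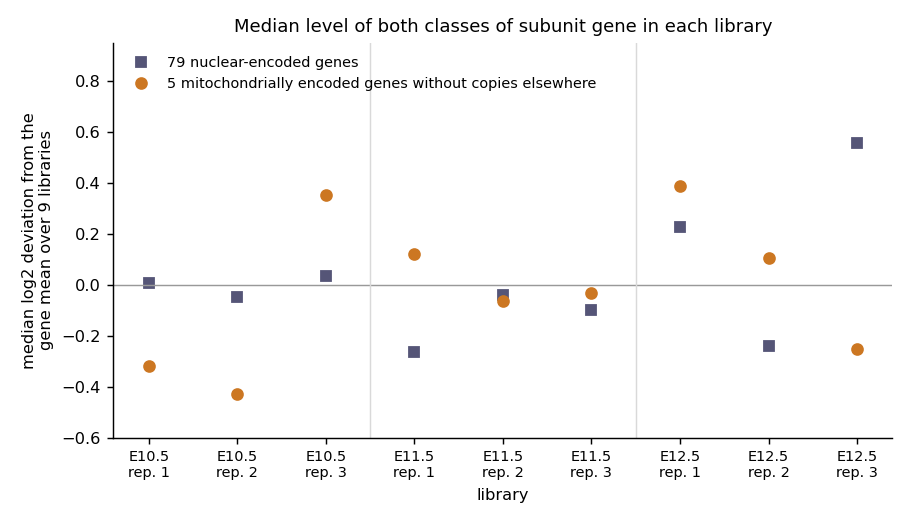
Median deviation (log2 units) of 79 nuclear-encoded and of 5 mitochondrially encoded genes with under 10% of windows elsewhere from each gene's mean over the 9 libraries, 1 point a library. The nuclear-encoded median ranges from −0.24 to 0.56 within E12.5 and the mitochondrial one from −0.43 to 0.35 within E10.5.

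E12.5 vs. E10.5 covered the whole span and gave 6 called members, as E11.5 vs. E10.5 did, with which it shares the E10.5 libraries. In edgeR, 5 nuclear-encoded genes were upregulated (6.33% of 79, beside 14.0% of all genes) and none was downregulated (1 at an unadjusted p under 0.05, 0 by DESeq2), where all genes gave 10.5%. Of the mitochondrially encoded genes 1 was upregulated and none downregulated (0 at an unadjusted p under 0.05, 0 by DESeq2). At the thresholds of the study, Cox4i2 and Atp5e were upregulated and none was downregulated, beside 9.97% and 5.08% of all genes. Every E12.5 library lay above every E10.5 library for 6 nuclear-encoded genes and below for 4, or 7.59% and 5.06%, beside 22.0% and 20.4% of all genes. The median log2 fold change was 0.19 for nuclear-encoded and 0.09 for mitochondrially encoded genes, against −0.01 for all genes.

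Cox4i2 changed most, from 3.01 ± 0.158 to 9.22 ± 2.72 CPM (SD, n = 3; log2 fold change 1.62 ± 0.28 (SE), adjusted p = 0.00209, edgeR). Among the calls of subunit genes in the pairs of stages, this one alone held when each of the 6 libraries was left out in turn, with log2 fold changes of 1.38 to 1.81 and adjusted p-values of 0.00259 to 0.0135. Atp5e went from 77.7 ± 10.8 to 162 ± 62.5 CPM (log2 fold change 1.07 ± 0.26 (SE), adjusted p = 0.0140, edgeR), and its call was lost without E12.5 replicate 3 (adjusted p = 0.0608). Ndufa1, a small X-linked accessory subunit of complex I, had 13.1, 12.1 and 15.8 CPM in the E10.5 libraries, 13.8, 19.7 and 18.8 in those of E11.5 and 25.8, 16.7 and 35.03 in those of E12.5, the E12.5 libraries all above the E10.5 libraries (log2 fold change 0.93 ± 0.27 (SE), adjusted p = 0.0272, edgeR). Its call was lost without E10.5 replicates 1 or 2 or E12.5 replicates 1 or 3 (adjusted p from 0.0654 to 0.122). Ndufa3, another accessory subunit, had 23.97, 16.6 and 26.4 CPM in the E10.5 libraries, 22.9, 31.9 and 30.2 in those of E11.5 and 40.7, 28.3 and 51.3 in those of E12.5, with the lowest E12.5 library just above the highest E10.5 library (log2 fold change 0.85 ± 0.25 (SE), adjusted p = 0.0323, edgeR). It was lost without E10.5 replicates 1 or 2 or E12.5 replicates 1 or 3 (adjusted p from 0.0538 to 0.137), with the GC trend removed (adjusted p = 0.0634), with the length trend removed (0.0541) and with both removed (0.0777, edgeR). Atp5s went from 6.63 ± 1.27 to 11.3 ± 1.02 CPM (log2 fold change 0.77 ± 0.23 (SE), adjusted p = 0.0339, edgeR), a call lost without E10.5 replicates 1 or 2 or E12.5 replicates 1 or 3 (adjusted p from 0.0998 to 0.150) and with the length trend removed (adjusted p = 0.112, edgeR).

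Beside these changes, the endothelium marker sum was 74.1 to 254 CPM in the E10.5 libraries, 252 to 271 in those of E11.5 and 206 to 274 in those of E12.5, and the neuron sum 150 to 179, 173 to 197 and 264 to 300 CPM. In E10.5 replicates 1, 2 and 3 in turn, Cox4i2 had 3.03, 2.84 and 3.16 CPM and the endothelium sum was 254, 254 and 74.1 CPM. Replicate 3 also stood apart in its mesenchyme and epithelium sums and in its trend with GC content. The part of endothelium or of other cell types in the change of Cox4i2 was not tested.

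Upstream sequence of called genes is shown for 2 that rose by E12.5 and 2 that fell at E11.5, to set their promoters side by side. Each run is the 150 bases before the RefSeq start (GRCm38.p6), 5′ to 3′ on the gene's strand: Atp5e at chr2:174464102-174464251 (minus strand), Ndufa3 at chr7:3617223-3617372 (plus), Ndufc2 at chr7:97399853-97400002 (plus) and Uqcr10 at chr11:4704345-4704494 (minus). Capitals mark matches on either strand to CCAAT, to the ETS family core CCGGAAG or to the SP family box GGGCGG, and no matches overlap.
Atp5e: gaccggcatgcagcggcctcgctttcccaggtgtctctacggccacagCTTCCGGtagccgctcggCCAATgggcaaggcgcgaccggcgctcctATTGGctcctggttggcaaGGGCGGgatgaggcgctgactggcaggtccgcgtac
Ndufa3: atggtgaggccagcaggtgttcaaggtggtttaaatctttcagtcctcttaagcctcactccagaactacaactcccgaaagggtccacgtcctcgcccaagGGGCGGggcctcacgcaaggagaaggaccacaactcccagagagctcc
Ndufc2: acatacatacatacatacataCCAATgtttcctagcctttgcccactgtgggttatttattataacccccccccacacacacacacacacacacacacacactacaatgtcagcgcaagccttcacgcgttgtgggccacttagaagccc
Uqcr10: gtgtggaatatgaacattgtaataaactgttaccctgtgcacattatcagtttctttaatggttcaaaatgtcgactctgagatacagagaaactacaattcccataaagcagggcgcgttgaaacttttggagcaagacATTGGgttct

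A RefSeq promoter window, 250 bases before to 50 after the start, was matched for 63 of 84 named nuclear-encoded genes. Several motifs known from respiratory gene promoters were searched on both strands over the whole window. The NRF1 palindrome, GCGCA joined to its reverse complement TGCGC, was in 6.35% of members against 0.977% of 27025 genes, the ETS core CCGGAAG in 23.8% against 9.12%, the YY1 core ATGGCG in 23.8% against 9.24% and the ERR response element core AAGGTCA in 12.7% against 4.66%. GGGCGG was in 39.7% against 35.9%, CCAAT in 44.4% against 37.9% and the TATA box TATAAA in 11.1% against 14.2%. Over the 17491 protein-coding genes the shares were 1.32% for NRF1, 11.9% for ETS, 11.2% for YY1, 4.08% for ERR, 46.3% for GGGCGG, 39.03% for CCAAT and 13.3% for TATAAA, so the members' share of GGGCGG lay above that of all genes and below that of protein-coding genes. A match is a description of the letters and was not tested as a site.

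**Figure D4:**
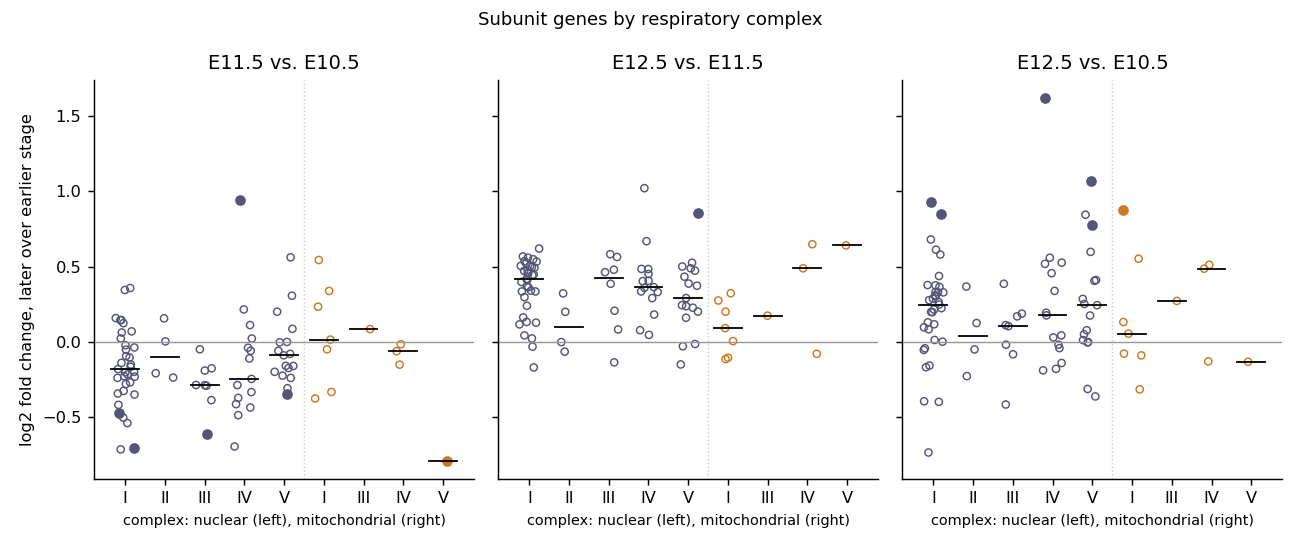
Log2 fold change (later over earlier stage) of each tested subunit gene in the 3 comparisons, by complex, nuclear-encoded on the left of each panel and mitochondrially encoded on the right. Filled points passed an adjusted p of 0.05 in edgeR and bars are medians; nuclear-encoded medians lie below 0 in E11.5 vs. E10.5 and above 0 in E12.5 vs. E11.5.

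The fitted fall and rise of many nuclear-encoded genes was put to a test of its own, the change of E12.5 vs. E11.5 minus that of E11.5 vs. E10.5 in 1 edgeR fit of the 9 libraries. Both intervals use the E11.5 libraries, so the level of these libraries enters both, with opposite sign. The nuclear-encoded median deviation was −0.26 in E11.5 replicate 1 against −0.04 and −0.10 in the others of its stage. Although 73 of 79 nuclear-encoded genes were fitted above 0 (median 0.51), none passed the adjusted test in either direction (11 above 0 and 0 below at an unadjusted p under 0.05), where 0.562% and 0.623% of all genes passed upward and downward. Of the 12 mitochondrially encoded genes, 7 were fitted above 0 and none passed (0 at an unadjusted p under 0.05). The contrast was not run in DESeq2.

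In complex II, the only complex built wholly from nuclear genes, none of the 4 genes was called in any pair of stages with all libraries by edgeR (0 at an unadjusted p under 0.05 in each, and 0 by DESeq2), where 4.57 to 14.0% of all genes were called in a direction. Without E12.5 replicate 2, Sdhb was upregulated in E12.5 vs. E11.5 (log2 fold change 0.46, adjusted p = 0.0249, edgeR). Sdha was at 231 ± 9.57, 231 ± 13.3 and 222 ± 22.6 CPM (SD, n = 3) in the 3 stages in turn, and Sdhd at 124 ± 8.84, 105 ± 10.02 and 105 ± 26.8 CPM. Sdhb had 139.9 ± 17.1, 121 ± 5.13 and 152 ± 36.6 CPM and Sdhc 114 ± 8.02, 127 ± 8.06 and 147 ± 27.4 CPM. Their fitted log2 fold changes over the whole span were −0.05, −0.23, 0.13 and 0.37, in the order Sdha, Sdhd, Sdhb, Sdhc. For Atp5a1 the change over the whole span was −0.00 ± 0.18 (SE).

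Shares within paralog sets set each gene against its partners in the same library. Of both Cox4 genes per kilobase, Cox4i2 made up 2.37, 2.43 and 2.91% in the E10.5 libraries, 5.40, 4.77 and 4.63% in those of E11.5 and 5.62, 5.57 and 5.53% in those of E12.5. The 3 stages did not overlap, while Cox4i1 itself had 245, 224 and 207 CPM in the E10.5 libraries, 202, 234 and 222 in those of E11.5 and 294, 223 and 406 in those of E12.5, with overlap at every step (log2 fold change over the whole span 0.46, adjusted p = 0.160 in edgeR). Among the 3 genes for the c-ring subunit, whose mature proteins are the same, Atp5g3 made up 45.02, 43.1 and 45.1% in the E10.5 libraries, 50.05, 51.3 and 49.3% in those of E11.5 and 54.1, 52.2 and 54.8% in those of E12.5 per kilobase. Atp5g2 made up 48.3, 49.2 and 48.3% in the E10.5 libraries, 44.1, 41.6 and 44.6% in those of E11.5 and 37.6, 41.6 and 37.5% in those of E12.5. The Atp5g3 shares of the 3 stages did not overlap, and nor did those of Atp5g2, although its lowest E11.5 and highest E12.5 shares both round to 41.6%. Atp5g1 held 5.89 to 8.30% throughout. It has 4912 annotated exon bases against 1675 for Atp5g2 and 2181 for Atp5g3, and a longer gene length lowers a share on this scale. Of the 3 Cox7a genes, Cox7a2 made up 53.6, 51.8 and 60.5% in the E10.5 libraries, 46.9, 44.5 and 46.1% in those of E11.5 and 47.1, 41.9 and 44.4% in those of E12.5, and Cox7a2l most of the rest. These shares were looked at after the levels and carry no test, and 3 libraries against 3 could not reach an exact p below 0.1.

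Nuclear and mitochondrial genes were then compared directly. The median log2 fold change of mitochondrially encoded minus that of nuclear-encoded genes was 0.14 for the earlier interval, −0.19 for the later interval and −0.10 for the whole span. Leaving out 1 library gave −0.07 to 0.41, −0.44 to 0.19 and −0.28 to 0.35, so the sign changed with the library left out in each: it turned without E10.5 replicate 1 or 2 in the first, without E12.5 replicate 3 in the second and without E10.5 replicate 3 or E12.5 replicate 3 in the last. The ratio of the summed mitochondrial to the summed nuclear levels per kilobase was 2.25, 2.21 and 3.93 in the E10.5 libraries, 3.73, 2.78 and 3.03 in those of E11.5 and 3.37, 3.60 and 1.64 in those of E12.5. The stage means of 2.80 ± 0.981, 3.18 ± 0.491 and 2.87 ± 1.07 (SD, n = 3) overlapped widely, with E10.5 replicate 3 at the top and E12.5 replicate 3 at the bottom. In counts, the mitochondrial members took 1.29 to 2.35% and the nuclear members 0.793 to 1.23% of a library.

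**Figure D5:**
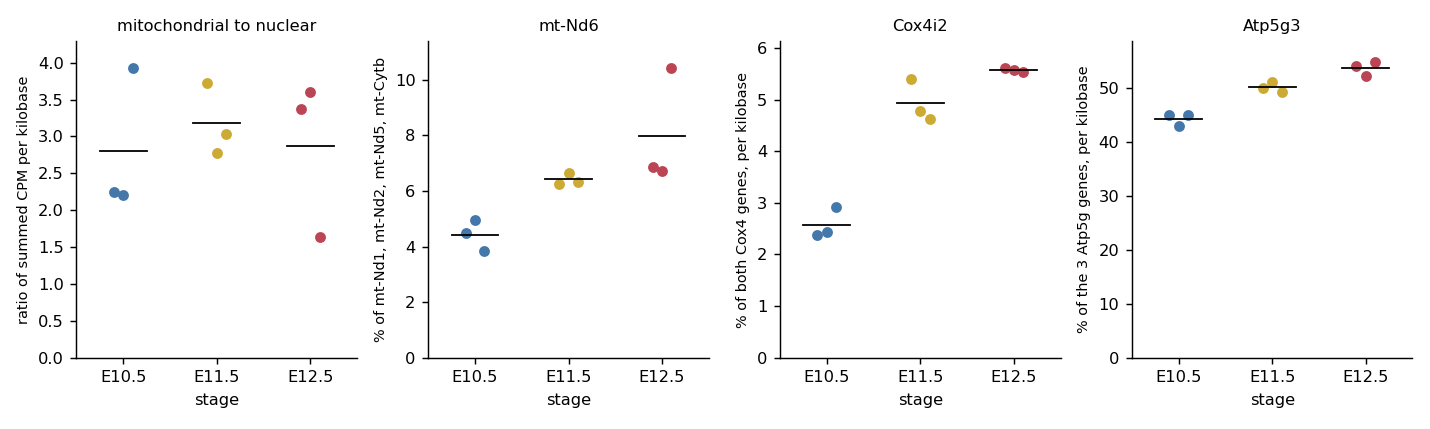
Ratios in each library by stage (points, with stage means as bars, axes from 0): summed mitochondrial over nuclear CPM per kilobase, mt-Nd6 as % of 4 heavy-strand-transcribed genes, Cox4i2 as % of both Cox4 genes and Atp5g3 as % of the 3 Atp5g genes. The first overlaps between stages and the other panels do not.

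mt-Nd6, whose transcript comes from the opposite strand, was the mitochondrially encoded gene that rose over the whole span. Its levels were 317, 326 and 524 CPM in the E10.5 libraries, 598, 548 and 554 in those of E11.5 and 797, 616 and 723 in those of E12.5. The 3 stages did not overlap (log2 fold change 0.88 ± 0.23 (SE), adjusted p = 0.0178 in E12.5 vs. E10.5, edgeR), and the steps of 0.54 and 0.32 did not pass on their own (adjusted p = 0.115 and 0.131, edgeR). The call was lost without E10.5 replicates 1 or 2 or E12.5 replicates 1 or 3 (adjusted p from 0.0538 to 0.0835). Against the summed CPM of mt-Nd1, mt-Nd2, mt-Nd5 and mt-Cytb, which had under 10% of windows elsewhere, mt-Nd6 was 4.48, 4.94 and 3.83% in the E10.5 libraries, 6.26, 6.64 and 6.33% in those of E11.5 and 6.87, 6.70 and 10.4% in those of E12.5, again without overlap. This ratio was formed after the levels were seen and has no test. The library kit does not mark strand, and mt-Nd6 and mt-Nd5 share 2.70% of the exon bases of mt-Nd6 on opposite strands, so reads from mt-Nd6 and from antisense transcripts over it cannot be told apart. These 4 genes had no call over the whole span: mt-Nd1 −0.31, mt-Nd2 0.06, mt-Nd5 0.13 and mt-Cytb 0.27 in log2 fold change.

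The remaining mitochondrially encoded genes had no call in any comparison with all libraries. mt-Co1 had 6907 ± 2651, 6611 ± 430.4 and 6284 ± 1471 CPM (SD, n = 3) in the 3 stages in turn, and mt-Nd4 1030.4 ± 310.4, 1302 ± 76.7 and 1503 ± 486 CPM. mt-Co2 had 52.7, 50.4 and 63.2 CPM in the E10.5 libraries, 55.7, 55.5 and 53.05 in those of E11.5 and 107, 51.7 and 72.6 in those of E12.5. mt-Co3 had 29.4, 19.8 and 41.7 CPM in the E10.5 libraries, 25.5, 31.4 and 24.9 in those of E11.5 and 66.5, 29.9 and 32.6 in those of E12.5. Both were highest in E12.5 replicate 1, the library with 325 CPM on the pseudogene copies. mt-Nd3 was at 23.4 ± 19.04, 23.6 ± 3.08 and 22.1 ± 4.83 CPM, with 45.4 CPM in E10.5 replicate 3 against 13.2 and 11.6 in the others of its stage, and without that library it was upregulated over the whole span (log2 fold change 0.84, adjusted p = 0.0182 in edgeR). mt-Nd4l stayed at 3.69 to 8.67 CPM and mt-Atp8 at 0.186 to 1.01 CPM.

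Other genes of mitochondrial biogenesis were read from lists of their own. Calls in these lists and among marker genes are given without the effect of leaving out a library, unlike those of subunit genes. None of the assembly factors (44 or 45 tested), TCA cycle genes (17) or genes for electron carriers and coenzyme Q (19) was called by edgeR in any comparison. At an unadjusted p under 0.05, the earlier interval, the later interval and the whole span gave 0, 6 and 4 assembly factors higher and 1, 1 and 3 lower, 0, 0 and 0 TCA cycle genes higher and 3, 2 and 4 lower, and 0, 2 and 1 carrier genes higher and 5, 1 and 1 lower. DESeq2 called 0, 1 and 1 assembly factors, 0, 0 and 2 TCA cycle genes and 1, 0 and 0 carrier genes, all lower. Mitochondrial ribosomal proteins (77 tested) had 3 downregulated in E11.5 vs. E10.5, where 5.58% of all genes were, among them Mrpl12 (71.6 ± 5.96 to 48.9 ± 4.41 CPM, log2 fold change −0.55 ± 0.12 (SE), adjusted p = 0.0222, edgeR) and Mrps28, none called in E12.5 vs. E11.5 by edgeR (7 higher and 0 lower at an unadjusted p under 0.05, 0 by DESeq2) and 1 downregulated, Mrps18b, over the whole span. At an unadjusted p under 0.05, 15 of these proteins were lower and 0 higher in E11.5 vs. E10.5 (5 lower by DESeq2). Over the whole span, 3 were lower and 0 higher (2 lower by DESeq2), and 10.5% of all genes were downregulated by edgeR. The medians of the ribosomal proteins were −0.22, 0.15 and −0.06 in the 3 comparisons, beside −0.17, 0.37 and 0.19 for nuclear-encoded subunits.

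Of 21 regulators of mitochondrial genes tested, 1 was upregulated and 2 were downregulated over the whole span, where 14.0% and 10.5% of all genes were. Ppargc1a, a coactivator of mitochondrial biogenesis, rose over the whole span (2.61 ± 1.21 to 6.40 ± 1.32 CPM, log2 fold change 1.30 ± 0.35 (SE), adjusted p = 0.0197, edgeR) and also from E11.5 to E12.5. Its relative Pprc1 fell (147 ± 16.6 to 84.9 ± 18.4 CPM, log2 fold change −0.78 ± 0.20 (SE), adjusted p = 0.0161, edgeR), and it also fell from E10.5 to E11.5. Polg, the mitochondrial DNA polymerase, fell over the whole span (64.3 ± 11.5 to 37.5 ± 4.56 CPM, log2 fold change −0.77 ± 0.19 (SE), adjusted p = 0.0145, edgeR). Of all genes, 5.58%, 4.57% and 10.5% were downregulated in the earlier interval, the later interval and the whole span. Of 16 genes for mitochondrial RNA processing and decay, 2 were downregulated in E11.5 vs. E10.5, none was called in E12.5 vs. E11.5 by edgeR (1 lower at an unadjusted p under 0.05, 0 by DESeq2) and 3 were downregulated over the whole span, among them Tbrg4 (90.7 ± 13.8 to 51.5 ± 2.10 CPM, log2 fold change −0.81 ± 0.17 (SE), adjusted p = 0.00696, edgeR) and Elac2, the RNase Z of mitochondrial tRNAs (69.7 ± 7.13 to 40.7 ± 1.74 CPM, log2 fold change −0.77 ± 0.17 (SE), adjusted p = 0.00711, edgeR). Of 18 genes for import and mass, 2 were downregulated in E11.5 vs. E10.5, Slc25a5, an ADP/ATP carrier (430.1 ± 22.2 to 238 ± 26.2 CPM, log2 fold change −0.85 ± 0.11 (SE), adjusted p = 0.00406, edgeR), and Phb, none was called in E12.5 vs. E11.5 by edgeR (1 lower at an unadjusted p under 0.05, 0 by DESeq2), and Slc25a5 and the chaperonin Hspd1 (939.7 ± 220.0 to 463 ± 83.3 CPM, log2 fold change −1.02 ± 0.22 (SE), adjusted p = 0.00726, edgeR) were downregulated over the whole span. At an unadjusted p under 0.05, 11 of these 18 genes were lower and 0 higher in E11.5 vs. E10.5 (4 lower by DESeq2). Over the whole span, 6 were lower and 0 higher (2 lower by DESeq2). For RNA processing and decay, the same counts were 4 and 0 (2 lower by DESeq2) and 5 and 0 (4 lower by DESeq2).

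Marker genes were read with the same edgeR test, in the order earlier interval, later interval and whole span. Of all genes, 6.19%, 7.61% and 14.0% were upregulated and 5.58%, 4.57% and 10.5% downregulated in that order. Of 7 mesenchyme markers, 4, 0 and 4 were upregulated and 0, 1 and 1 downregulated, with Pdgfra at 146 ± 45.5 to 423 ± 55.98 CPM, log2 fold change 1.54 ± 0.24 (SE), adjusted p = 0.00111 over the whole span. Of 6 epithelium markers, 0, 0 and 0 were upregulated and 2, 0 and 3 downregulated, with Krt18 at 94.7 ± 29.9 to 46.6 ± 6.32 CPM, log2 fold change −1.02 ± 0.23 (SE), adjusted p = 0.00910. Of 8 erythroid markers, 0, 1 and 1 were upregulated and 0, 6 and 3 downregulated, where the embryonic globin Hbb-bh1 fell (856 ± 257 to 158 ± 40.8 CPM, log2 fold change −2.43 ± 0.27 (SE), adjusted p = 0.000102) and the adult globin Hba-a1 rose (339 ± 151 to 762 ± 109 CPM, log2 fold change 1.18 ± 0.31 (SE), adjusted p = 0.0174). Of 5 neuron markers, 1, 1 and 1 were upregulated and 1, 0 and 0 downregulated, led by Stmn2 (17.5 ± 5.55 to 106 ± 22.4 CPM, log2 fold change 2.61 ± 0.26 (SE), adjusted p = 4.48e-05). No endothelium marker (4 tested), macrophage marker (4) or muscle marker (3 of 8 tested) was called by edgeR or by DESeq2. At an unadjusted p under 0.05, 1 endothelium marker was lower and 1 macrophage marker higher in E12.5 vs. E11.5, and none of the muscle markers passed. No sperm marker was tested. The part of these cells in the changes of the subunit genes was not tested.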

How the data were processed

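RNA-seq counts of 9 libraries were used, 3 a stage, grouped by the stage in the sample titles. Per the study's methods and the submitters' processing notes, the authors mapped reads to mm10 with HISAT2 2.0.5, and featureCounts gave the number per gene. The strand setting and the treatment of reads with several positions are not given in the sources used here. The authors deposited whole-number read counts without normalization, which were used here, and FPKM values, which were not. The deposited signal columns hold the authors' mean normalized counts per stage, the deposited log2 columns their fold changes and the deposited p-value columns their tests. None of these was used.

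For 2 stages at a time, the 6 libraries were fitted with edgeR 4.0.16 (R 4.3.3) after filterByExpr and trimmed mean of M-values scaling, with the quasi-likelihood test and Benjamini-Hochberg adjustment over all genes tested. An adjusted p of at most 0.05 was called. CPM were computed on scaled library sizes of all 9 libraries and divided by the deposited gene length where genes were compared. A fixed rule named every mitochondrially encoded gene, members past the study's thresholds, the 4 called nuclear-encoded genes with the smallest p among those without overlap, the extremes of each complex, paralog sets and Sdh genes, and from other lists the 2 called genes of smallest p a direction. The shares and ratios noted as such were chosen after their values were seen. The members and lists were chosen with earlier results of these data known. The values of some genes are not reported here. The test was checked on simulated counts. Alternatives were other scalings, DESeq2 1.42.0, other filters, 1 fit of all 9 libraries, a replicate block, removal of GC or length trends (lowess), stricter thresholds and leaving out each library. Depth, 16581009 to 20836804 counts, sets a level of 3 counts at 0.144 to 0.181 CPM, which covers counting error only. Shared windows were 100 bases of the longest GENCODE vM21 transcript, and promoters came from RefSeq GRCm38.p6.

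Every pair of libraries of a stage differed by more than sampling noise.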

Additional observations from a re-analysis of the deposited data

How the results depend on the processing

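Most alternatives for single genes concern genes that were not called with all libraries, so the share kept does not measure how stable the calls were. Only the call of Cox4i2 over the whole span held with each library left out. Of 2728 values, 2539 kept their side of the threshold, 95 gained and 89 lost the call and 5 were counted as turned. Changes of sign without a call were not all counted as turned. For example, mt-Co3 in E11.5 vs. E10.5 stood at −0.15 and ran from −0.38 to 0.15 with 1 library left out. The 5 counted were mt-Co1 (0.30), mt-Nd1 (0.24) and mt-Nd2 (0.50) in E11.5 vs. E10.5 without E10.5 replicate 3, mt-Nd2 (0.23) with the GC trend also removed, and mt-Nd3 (0.84) in E12.5 vs. E10.5 without that replicate. With 1 library left out, the genes counted as turned ran from −0.23 to 0.30 (mt-Co1), −0.57 to 0.24 (mt-Nd1), −0.27 to 0.50 (mt-Nd2) and −0.41 to 0.84 (mt-Nd3). The cause was not tested.

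In E11.5 vs. E10.5, 1 nuclear-encoded gene was called higher with all libraries, and 0 to 12 with 1 library left out, 7 without E10.5 replicate 3 and the GC trend, and 0 with the replicate block, with an adjusted p of at most 0.01 or with the study's thresholds. The count called lower was 4, and 0 to 22 with 1 library left out, 21 without E10.5 replicate 3 and the GC trend, 2 with upper-quartile scaling, 1 in the fit of 9 libraries, 10 with the GC trend removed, with or without the replicate block, 11 with GC and length trends removed, 1 at 0.01 and 0 at the study's thresholds. The 10 were 12.7% of 79, beside 12.5% of all genes without the block and 10.98% with it. The 11 were 13.9%, beside 14.1% of all genes. Mitochondrially encoded genes called higher were 0, and 0 to 8 with 1 library left out, 5 without E10.5 replicate 3 and the GC trend, 1 without a filter, 1 with replicate block and GC trend removed, 2 with the GC trend removed and 1 with both trends removed. Those called lower were 1, and 0 to 1 with 1 library left out, 2 without E10.5 replicate 3 and the GC trend, and 0 in the fit of 9 libraries, at 0.01 or at the study's thresholds.

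In E12.5 vs. E11.5, the nuclear-encoded count called higher was 1, and 0 to 55 with 1 library left out, 15 without E12.5 replicate 2 and the length trend, 2 with upper-quartile scaling, 2 in DESeq2, 30 without a filter (36.6%, beside 6.18% of all genes), 3 with the replicate block (3.80%, beside 8.11%), and 0 at 0.01 or at the study's thresholds. Those called lower were 0, and 1 with the length trend removed, with both trends removed, or without E12.5 replicate 2 and the length trend, and the same counts held for mitochondrially encoded genes. Mitochondrially encoded genes called higher were 0, and 0 to 3 with 1 library left out and 3 without a filter.

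In E12.5 vs. E10.5, the nuclear-encoded count called higher was 5, and 1 to 13 with 1 library left out, 10 without a filter, 10 with the replicate block, 11 with the block and the GC trend removed, 3 with the length trend removed, 1 at 0.01 and 2 at the study's thresholds. The 10 were 12.2% of 82 without a filter and 12.7% of 79 with the block, beside 9.12% and 15.2% of all genes. The 11 were 13.9%, beside 15.6% of all genes. Nuclear-encoded genes called lower were 0, and 0 to 2 with 1 library left out, 1 without a filter, 1 with the replicate block, 5 with the block and the GC trend removed, 3 with the GC trend, 2 with the length trend and 4 with both trends removed. The 5 were 6.33%, beside 22.8% of all genes. Mitochondrially encoded genes called higher were 1, and 0 to 4 with 1 library left out and 0 at 0.01 or at the study's thresholds, and those called lower were 0, and 0 to 1 with 1 library left out.

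The replicate numbers gave no pairing that the labels explain: correlations of deviations between libraries of the same number were −0.15 to 0.22, and 5 of 9 libraries correlated best with their own number. The ratio of mitochondrial to nuclear levels became 1.73 (E10.5), 1.96 (E11.5) and 1.81 (E12.5) over the 5 genes with under 10% of windows elsewhere, 2.09 at E11.5 without division by length and 2.22 at E11.5 without the member of most counts. With 1 library left out it was 2.23 to 3.09, 2.90 to 3.38 and 2.504 to 3.48. As a difference of median log2 levels it was 4.003, 4.46 and 4.02. The median difference between mitochondrially and nuclear-encoded changes ran from −0.07 to 0.41, from −0.44 to 0.19 and from −0.28 to 0.35 with 1 library left out, with a change of sign in each. Of 62 alternatives for it, 61 moved by less than the spread between libraries of a stage (SD 0.45) and 1 by more (0.35, the whole span without E10.5 replicate 3). That spread is larger than each of the differences with all libraries, so the count of 61 does not show that they are stable. Depth limits what can be said of genes near 3 counts.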
